A study of Mus musculus with 20 samples.

Results

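The genes described here are 37 genes of macrophages and monocytes, taken by symbol from the deposited table of counts per gene. The rule uses gene names and no measured value. The members were still chosen with earlier results of these data known, so their share called beside that of all genes is a description. A row was found for 36 of them among 32285 genes, and all 36 passed the filter on low counts. For Clec7a, which encodes dectin-1, expression is not analysed here, and it enters only the search of promoter letters. The samples were 20 tumours of B16F10, a pigmented and poorly immunogenic melanoma line of C57BL/6 origin, grown in wild-type, immunocompetent C57BL/6 mice and sequenced as bulk RNA. By treatment they were labelled IgG (control antibody, 5 tumours), propafenone (5), anti-PD-1 (5) and propafenone +anti-PD-1 (5, called the combination here). Injections were intraperitoneal and began near a tumour volume of 100 mm3, and tumours were taken on day 16. The protocol speaks of IgG control with or without propafenone, although the label of the propafenone group names no antibody. Doses, the age of the mice and the antibody clones are not given in the sources used here. Propafenone is an antiarrhythmic blocker of cardiac sodium channels, and anti-PD-1 blocks an inhibitory receptor of T cells. Each tumour was taken as 1 replicate, although the labels do not say that each came from its own mouse, so p-values measure the spread between these samples.

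Monocytes leave the blood, enter tumours and mature there into macrophages under the growth factor CSF1, which acts through the receptor encoded by Csf1r. The lineage depends on PU.1, the transcription factor encoded by Spi1, which binds purine-rich sites in many myeloid genes. Macrophages take up antibody-coated cells through Fc gamma receptors, which signal through adaptors that carry an immunoreceptor tyrosine-based activation motif (ITAM), and take up dying cells through receptors such as MERTK and AXL. In tumours they can present antigen and kill, or restrain T cells and feed growth. In bulk tissue, fewer cells of a type and less RNA per cell cannot be told apart.

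Libraries held between 55985437 and 64514815 expected counts, and 15875 genes were tested. Genes of the melanocyte lineage summed to between 14400 and 23400 CPM (read counts scaled to library size, with TMM factors) in the 20 tumours, and each of the 8 was above 0 in each library. Markers of other leukocytes were mostly low, as were some members: Ly6c2 and Cx3cr1 together summed to 0.164 to 0.887 CPM in IgG and 1.36 to 4.07 CPM in combination tumours. Dendritic cell markers summed to 8.68 to 14.9 CPM in IgG and 13.4 to 18 CPM in combination tumours. Of these sums Zbtb46 alone made up 6.41 to 11 CPM in IgG and 8.3 to 9.67 CPM in combination tumours. Mast cell markers summed to 9.94 to 23.5 and 24.8 to 51.8 CPM, with Kit alone reaching 50.1 CPM. The 10 neutrophil markers summed to 0.458 to 2.87 CPM in IgG and 1.66 to 3.23 CPM in combination tumours. Mpo was at 0 in 19 and Ly6g in 18 of 20 libraries, but S100a8 and S100a9 in only 1 each. Csf3r was above 0 in all 20, at up to 2.2 CPM. The 6 T cell markers summed to 0.638 to 4.16 and 1.89 to 9.78 CPM, and the B cell markers to 1.87 to 2.77 and 2.38 to 3.08 CPM. Among B cell genes Ms4a1 was at 0 in 19 libraries, while Cd79a was above 0 in all 20, at up to 3.32 CPM. Skeletal muscle, keratinocyte, fibroblast and red blood cell genes varied widely between tumours, and their values stand beside the results below.

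In IgG tumours the members covered a wide range of levels. Per length, on the authors' TPM scale (transcript abundance scaled for length and library size), Cyba stood highest at 115 ± 22.1 TPM (mean ± SD, n = 5), followed by Sirpa at 86.2 ± 18.4, Lyz2 at 36 ± 23.3, Axl at 29.9 ± 13.3 and Cd68 at 22.2 ± 8.93 TPM. In this order the means of Cyba and Sirpa, and of Sirpa and Lyz2, differed by more than either SD. Their tumours still overlapped, at 86.5 to 139 TPM for Cyba, 59.8 to 109 for Sirpa and 13.7 to 64.9 for Lyz2. The neighbours Lyz2 and Axl, and Axl and Cd68, did not differ beyond their spread. Cyba, Sirpa and Axl are not restricted to macrophages, and many cell types outside the myeloid lineage use them. At the other end 7 members averaged under 1 TPM: Ly6c2 0.976 ± 0.823, Pirb 0.928 ± 0.792, Tlr2 0.836 ± 0.266, Ptprc 0.811 ± 0.584, Cd86 0.421 ± 0.341, Cd80 0.299 ± 0.096 and Cx3cr1 0.0711 ± 0.0439 TPM. Cx3cr1, the fractalkine receptor, was the lowest of all 36. The spread within IgG was wide, and for Ms4a7 the SD passed the mean, at 2.08 ± 2.21 TPM.

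Macrophage and monocyte genes were higher in combination than in IgG tumours. The log2 fold change was above 0 for all 36 members, with a median of 1.54, against a median of -0.012 over all 15875 genes, of which 48.2% were above 0. Past the threshold (edgeR quasi-likelihood test, Benjamini-Hochberg adjusted p under 0.05 over all genes) 22 members rose and 0 fell, where 2.24% of all genes were called higher and 2.63% lower. The members called rose between 1.75-fold and 4.77-fold. Another 7 members had an adjusted p from 0.05 to under 0.1, and the remaining 7 were at 0.1 or more. Before adjustment 34 members were under 0.05, against 23.6% of all genes. Each combination tumour lay above each IgG tumour for 19 members, against 4.72% of all genes (7.21% in the other direction, where no member was), and 15 of these 19 were among the 22 called. The heat map of the members by tumour shows both the step between groups and the spread inside each.

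**Figure D1:**
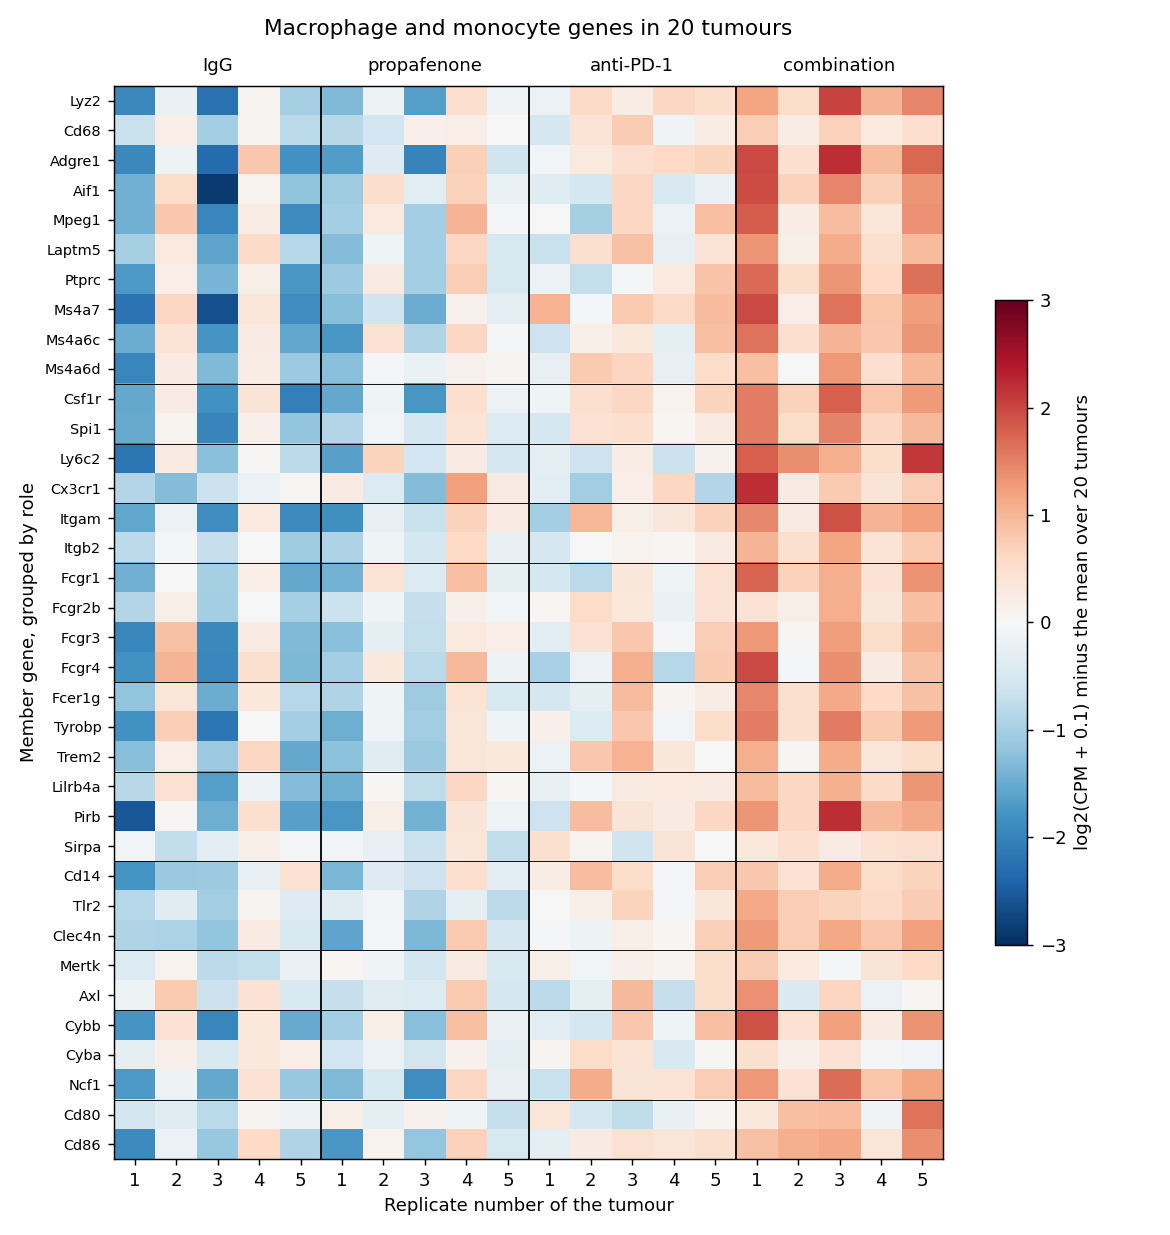
Each row is 1 of 36 members and each column 1 of 20 tumours, coloured by log2(CPM + 0.1) minus the member's mean over the 20 tumours, with black lines between groups of tumours and between roles of genes. The 5 combination tumours are above the member's mean in nearly all rows, while IgG tumours 2 and 4 and propafenone tumour 4 stand out as high within their groups.

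General markers of the lineage came first, with 5 of 10 past the threshold. Lyz2, the lysozyme of macrophages and granulocytes (ENSMUSG00000069516, chromosome 10, 117277331 to 117282321, minus strand, build GRCm38), is protein-coding, as are all members. Lyz2 measured 10.6, 35.5, 8.6, 43 and 20.3 CPM in IgG tumours 1 to 5, 16.2, 36.6, 12.9, 57.5 and 38.2 CPM after propafenone, 36, 61.1, 47.6, 63.2 and 58.7 CPM after anti-PD-1 and 93.5, 59.8, 167, 83.3 and 112 CPM after the combination. The combination tumours were all above the IgG tumours, and IgG tumour 4 was the highest of its group. Lyz2 rose 4.36-fold, from 23.6 ± 15.2 to 103 ± 40.2 CPM (log2 fold change 2.13 ± 0.46 SE, edgeR adjusted p = 0.0237). Adgre1, which encodes the macrophage surface protein F4/80, rose from 3.42 ± 3.42 to 15.6 ± 6.92 CPM (log2 fold change 2.19 ± 0.593 SE, edgeR adjusted p = 0.0426), with IgG tumour 4 at 8.93 CPM above combination tumour 2 at 7.21 CPM. Aif1, the calcium-binding protein IBA1 of macrophages, rose from 0.831 ± 0.74 to 3.22 ± 1.25 CPM (log2 fold change 1.95 ± 0.54 SE, edgeR adjusted p = 0.0438). Ptprc, the phosphatase CD45 of all leukocytes, rose from 2.28 ± 1.62 to 8.53 ± 3.16 CPM (log2 fold change 1.9 ± 0.464 SE, edgeR adjusted p = 0.029), and the groups did not overlap. Ms4a6d, a membrane protein of the MS4A family, rose from 2.77 ± 1.82 to 7.12 ± 2.33 CPM (log2 fold change 1.36 ± 0.39 SE, edgeR adjusted p = 0.0484), with IgG tumours 2 and 4 inside the range of the combination. The other 5 did not pass. Cd68, a lysosomal protein of phagocytes, measured 13.5 ± 5.22 CPM in IgG and 24.6 ± 3.81 CPM in combination tumours (log2 fold change 0.87 ± 0.259 SE, edgeR adjusted p = 0.0559), although no tumour of one group reached the other. Ms4a7 and Ms4a6c stood at 1.9 and 1.67 on the log2 scale (edgeR adjusted p = 0.0593 and 0.0533). Mpeg1, the pore-forming protein perforin-2, stood at 1.46 (0.128), and Laptm5, a lysosomal protein of blood cells, at 1.16 (0.104).

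**Figure D2:**
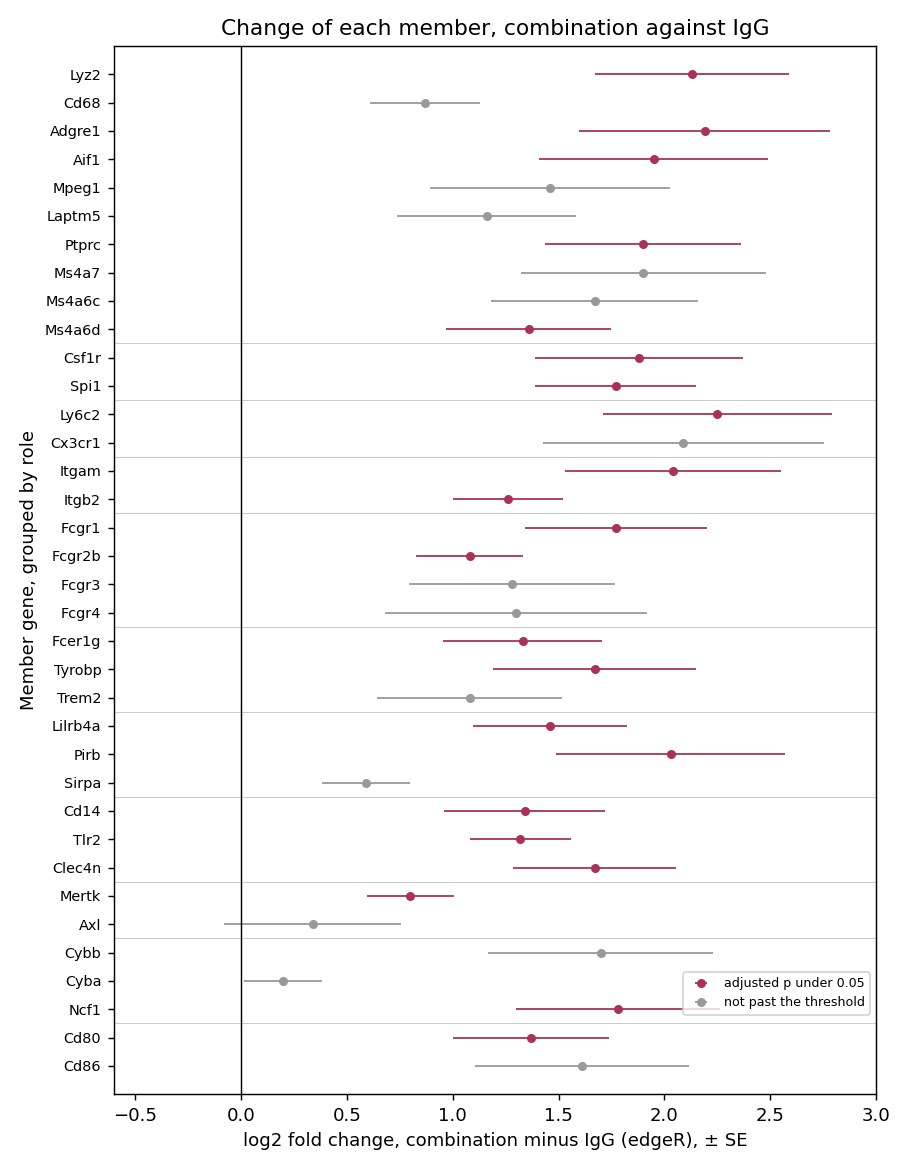
Points give the log2 fold change of each of 36 members between combination and IgG tumours (edgeR, x axis) with the standard error as a bar, members grouped by role on the y axis and the 22 past the threshold in red. Values run from 0.20 for Cyba to 2.25 for Ly6c2, and the 3 lowest are Cyba, Axl and Sirpa.

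Both genes that define the lineage rose. Csf1r, the CSF1 receptor (ENSMUSG00000024621, chromosome 18, 61100598 to 61132149, plus strand), rose 3.68-fold (log2 fold change 1.88 ± 0.492 SE, edgeR adjusted p = 0.0377). Csf1r measured 2.94, 10.4, 2.42, 11.5 and 2.04 CPM in IgG tumours 1 to 5, 2.96, 8, 2.53, 12.5 and 7.72 CPM after propafenone, 7.97, 12.3, 13.6, 9.52 and 14.1 CPM after anti-PD-1 and 25.6, 14.2, 30.7, 15.7 and 21.5 CPM after the combination. The combination tumours were all above the other 15, and IgG tumours 2 and 4 were far above the rest of their group.

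Spi1, which encodes PU.1 (ENSMUSG00000002111, chromosome 2, 91082390 to 91115756, plus strand), rose 3.4-fold (log2 fold change 1.77 ± 0.381 SE, edgeR adjusted p = 0.0212). Spi1 measured 1.16, 3.79, 0.813, 3.94 and 1.49 CPM in IgG tumours 1 to 5, 1.86, 3.34, 2.39, 4.67 and 2.61 CPM after propafenone, 2.41, 4.82, 4.99, 3.67 and 4.26 CPM after anti-PD-1 and 10.4, 5.21, 10.1, 5.46 and 7 CPM after the combination. Again the combination tumours were above the other 15, and IgG tumours 2 and 4 were the highest of their group.

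The start regions of the members are shown as a description, since the members include the lineage factor PU.1, whose sites share the letters GAGGAA. RefSeq windows of GRCm38.p6, from 250 bases before to 50 after a gene's start, were found for 26 of the 37 members, Clec7a among them, with 31 windows in all, since some genes have more than 1 start. 3 motifs were searched on both strands: GAGGAA (the PU.1 core), TTGCNNAA (a core of C/EBP sites) and the interferon response element core (GAAA, any 2 bases, GAAA). In the windows of the members no match of one motif overlapped a match of another. GAGGAA was found in 18 of the 31 windows (58.1%), in 15 of 26 genes, against 28.3% of all 32851 windows of the table. Of these 15 genes, Aif1, Ptprc, Ly6c2, Itgam, Fcgr1 and Pirb were called higher in combination than in IgG tumours. Cd68, Laptm5, Ms4a7, Fcgr3, Fcgr4, Trem2, Axl and Cybb were not called, and expression of Clec7a was not analysed. Of the genes with windows but no GAGGAA, Lyz2, Fcer1g, Fcgr2b, Mertk, Tlr2, Ncf1 and Cd80 were called. Mpeg1, Ms4a6c, Cx3cr1 and Cyba, also without it, were not called. Whether the letters go with the rise was not tested. TTGCNNAA was found in 4 windows (12.9%, against 10.8%), and the interferon element core in 4 (12.9%, against 3.44%). These shares are descriptions of letters with no test, some genes count with 2 windows, which overlap for all such genes but Ms4a7, and a match is not a bound site. Below are 5 windows of members that rose, from 5′ to 3′ on the gene's strand, with capitals at the motif matches. Those of Itgam, Ly6c2 and Ncf1 were chosen after the search, for their matches.
Lyz2 (chr10:117282223-117282522, minus strand): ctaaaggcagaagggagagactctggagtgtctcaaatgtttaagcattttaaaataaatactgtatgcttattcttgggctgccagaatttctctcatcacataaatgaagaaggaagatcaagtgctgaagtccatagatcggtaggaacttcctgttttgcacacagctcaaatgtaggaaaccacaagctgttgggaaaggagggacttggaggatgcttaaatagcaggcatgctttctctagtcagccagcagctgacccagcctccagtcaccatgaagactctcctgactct
Fcgr1 (chr3:96293920-96294219, minus strand): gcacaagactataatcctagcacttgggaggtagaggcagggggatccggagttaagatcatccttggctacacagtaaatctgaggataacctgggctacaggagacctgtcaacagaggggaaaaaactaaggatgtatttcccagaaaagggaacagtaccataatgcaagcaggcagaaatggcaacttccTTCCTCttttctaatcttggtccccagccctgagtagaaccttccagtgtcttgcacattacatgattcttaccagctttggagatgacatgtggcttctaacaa
Itgam (chr7:128062390-128062689, plus strand): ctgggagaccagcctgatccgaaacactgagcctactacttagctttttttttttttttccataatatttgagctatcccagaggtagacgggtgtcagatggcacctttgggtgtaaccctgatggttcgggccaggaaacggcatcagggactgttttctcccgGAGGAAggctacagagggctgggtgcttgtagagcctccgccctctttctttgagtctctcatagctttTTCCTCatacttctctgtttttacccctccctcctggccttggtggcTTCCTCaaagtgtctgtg
Ly6c2 (chr15:75111922-75112221, minus strand): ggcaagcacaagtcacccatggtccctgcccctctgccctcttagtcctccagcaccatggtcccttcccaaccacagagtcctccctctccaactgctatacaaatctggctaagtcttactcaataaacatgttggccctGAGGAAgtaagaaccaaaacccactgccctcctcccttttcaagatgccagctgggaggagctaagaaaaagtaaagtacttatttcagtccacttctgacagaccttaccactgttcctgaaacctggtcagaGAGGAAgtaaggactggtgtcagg
Ncf1 (chr5:134229576-134229875, minus strand): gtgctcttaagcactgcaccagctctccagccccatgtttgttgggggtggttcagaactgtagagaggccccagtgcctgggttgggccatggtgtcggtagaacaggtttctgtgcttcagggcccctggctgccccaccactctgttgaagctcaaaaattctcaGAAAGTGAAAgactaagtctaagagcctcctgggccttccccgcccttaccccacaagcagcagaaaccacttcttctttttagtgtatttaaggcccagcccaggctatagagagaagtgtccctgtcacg
The Fcgr1 window holds GAGGAA 1 time on the opposite strand, 55 bases before the start, and the Itgam window holds it 3 times. The Ly6c2 window holds it 2 times on the gene's strand. In the Ncf1 window the capitals mark the interferon element core, 82 bases before the start. None of the 3 motifs was in the Lyz2 window.

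Monocyte and adhesion genes followed. Ly6c2, a surface marker of inflammatory monocytes (ENSMUSG00000022584, chromosome 15, 75108158 to 75111970, minus strand), had the largest fitted change of the members and rose 4.77-fold (log2 fold change 2.25 ± 0.54 SE, edgeR adjusted p = 0.027). Ly6c2 measured 0.0654, 0.807, 0.216, 0.665 and 0.332 CPM in IgG tumours 1 to 5, 0.143, 1.09, 0.406, 0.796 and 0.424 CPM after propafenone, 0.511, 0.384, 0.781, 0.378 and 0.725 CPM after anti-PD-1 and 2.48, 1.86, 1.49, 0.986 and 3.17 CPM after the combination. All of these values were low, the combination tumours were all above the IgG and anti-PD-1 tumours, and propafenone tumour 2 lay inside their range. Cx3cr1, which marks patrolling monocytes and tissue macrophages, measured 0.155 ± 0.0925 CPM in IgG and 0.664 ± 0.522 CPM in combination tumours and did not pass (log2 fold change 2.09 ± 0.663 SE, edgeR adjusted p = 0.0677), with combination tumour 1 at 1.59 CPM apart from the rest. Itgam, the CD11b chain of the integrin Mac-1, rose from 3.33 ± 2.5 to 13.7 ± 5.36 CPM (log2 fold change 2.04 ± 0.509 SE, edgeR adjusted p = 0.0314), with IgG tumour 4 inside the range of the combination. Itgb2, the CD18 chain shared by all leukocyte beta-2 integrins (ENSMUSG00000000290, chromosome 10, 77530252 to 77565708, plus strand), rose 2.4-fold (log2 fold change 1.26 ± 0.259 SE, edgeR adjusted p = 0.0187). Itgb2 measured 5.81, 9.79, 6.26, 10.3 and 4.77 CPM in IgG tumours 1 to 5, 5.3, 9.29, 6.95, 15.4 and 8.65 CPM after propafenone, 7.08, 10.3, 11, 10.5 and 12.2 CPM after anti-PD-1 and 20.5, 14.1, 23.2, 13.4 and 17.6 CPM after the combination. Combination and IgG tumours did not overlap, and propafenone tumour 4 lay inside the range of the combination.

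Fc gamma receptors bind the constant part of IgG antibodies, and in the mouse FCGR2B is the inhibitory member while FCGR1, FCGR3 and FCGR4 activate. Of the 4 genes 2 rose. Fcgr1, the high-affinity receptor CD64, rose 3.4-fold (log2 fold change 1.77 ± 0.429 SE, edgeR adjusted p = 0.0283). Fcgr1 measured 0.965, 2.73, 1.34, 3.17 and 0.884 CPM in IgG tumours 1 to 5, 0.97, 3.73, 2.05, 5.26 and 2.23 CPM after propafenone, 1.89, 1.54, 3.56, 2.51 and 3.84 CPM after anti-PD-1 and 9.5, 4.54, 6.05, 3.76 and 7.15 CPM after the combination. The combination tumours were all above the IgG tumours, with propafenone tumour 4 and anti-PD-1 tumour 5 inside their range. Fcgr2b, which B cells also carry, rose 2.12-fold, from 8.56 ± 3.63 to 18.1 ± 5.02 CPM (log2 fold change 1.08 ± 0.252 SE, edgeR adjusted p = 0.0255). Fcgr3 measured 5.91 ± 5.37 CPM in IgG and 14.3 ± 4.74 CPM in combination tumours and Fcgr4 2.61 ± 2.5 CPM in IgG and 6.46 ± 3.78 CPM in combination tumours. IgG tumours 2 and 4 lay inside the range of the combination for both, tumour 2 at 14 CPM of Fcgr3 and 6.23 CPM of Fcgr4. Neither passed (log2 fold change 1.28 and 1.3, edgeR adjusted p = 0.119 and 0.208). Fcer1g, the ITAM chain that these activating receptors need, rose from 4.9 ± 2.91 to 12.3 ± 3.44 CPM (log2 fold change 1.33 ± 0.376 SE, edgeR adjusted p = 0.047). Tyrobp, the ITAM adaptor DAP12 of TREM2 and other receptors, rose from 2.38 ± 2.05 to 7.58 ± 2.37 CPM (log2 fold change 1.67 ± 0.478 SE, edgeR adjusted p = 0.0487). Trem2, a lipid-sensing receptor of tumour macrophages, measured 1.46 ± 1.06 CPM in IgG and 3.09 ± 1.01 CPM in combination tumours and did not pass (log2 fold change 1.08 ± 0.438 SE, edgeR adjusted p = 0.139).

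Among inhibitory receptors 2 of 3 rose. Lilrb4a rose from 3.42 ± 2.13 to 9.41 ± 2.09 CPM (log2 fold change 1.46 ± 0.365 SE, edgeR adjusted p = 0.0304) and Pirb, a receptor for MHC class I, rose from 1.77 ± 1.5 to 7.25 ± 3.49 CPM (log2 fold change 2.03 ± 0.54 SE, edgeR adjusted p = 0.0383), each with no overlap between combination and IgG. Sirpa, whose protein receives the CD47 signal against engulfment, measured 156 ± 35.8 CPM in IgG and 235 ± 19.3 CPM in combination tumours and did not pass (log2 fold change 0.59 ± 0.207 SE, edgeR adjusted p = 0.0945), although its groups did not overlap either. All 3 measured receptors of microbial patterns rose. Tlr2, which senses bacterial lipoproteins (ENSMUSG00000027995, chromosome 3, 83836272 to 83841767, minus strand), had the smallest p of the members and rose 2.49-fold (log2 fold change 1.32 ± 0.239 SE, edgeR adjusted p = 0.0128). Tlr2 measured 0.932, 1.36, 0.813, 1.89 and 1.33 CPM in IgG tumours 1 to 5, 1.37, 1.67, 0.91, 1.43 and 0.994 CPM after propafenone, 1.76, 2.02, 2.89, 1.73 and 2.26 CPM after anti-PD-1 and 4.02, 3.01, 2.88, 2.72 and 3.1 CPM after the combination. The tumours of the combination all lay above those of IgG and propafenone, while anti-PD-1 tumour 3 lay inside their range. Clec4n, the C-type lectin dectin-2, rose from 1.39 ± 0.674 to 4.43 ± 0.759 CPM (log2 fold change 1.67 ± 0.386 SE, edgeR adjusted p = 0.0251), with no overlap. Cd14, a co-receptor for bacterial lipopolysaccharide, rose from 1.34 ± 0.91 to 3.4 ± 0.635 CPM (log2 fold change 1.34 ± 0.381 SE, edgeR adjusted p = 0.0469), and IgG tumour 5 was level with combination tumour 2, at 2.78 CPM.

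The remaining roles were mixed. Mertk rose from 3.75 ± 1.01 to 6.56 ± 1.36 CPM (log2 fold change 0.8 ± 0.204 SE, edgeR adjusted p = 0.0314), the smallest change among those called. Axl, of the same receptor family, measured 52.2, 99.8, 37.1, 78.7 and 42.3 CPM in IgG and 149, 42.8, 90.6, 50.9 and 60.4 CPM in combination tumours, groups that overlap over most of their range (log2 fold change 0.34 ± 0.418 SE, edgeR adjusted p = 0.653). Of the oxidase that makes superoxide in phagocytes, the cytosolic subunit Ncf1 rose from 1.58 ± 1.12 to 5.42 ± 1.75 CPM (log2 fold change 1.78 ± 0.482 SE, edgeR adjusted p = 0.0401). Its membrane subunit Cybb measured 2.92 ± 2.37 CPM in IgG and 9.53 ± 4.4 CPM in combination tumours and did not pass (log2 fold change 1.7 ± 0.531 SE, edgeR adjusted p = 0.0651). The partner subunit Cyba measured 33.9, 45.9, 30.2, 51.6 and 47.8 CPM in IgG and 58.2, 46.6, 56.5, 40.3 and 39.5 CPM in combination tumours, largely overlapping (log2 fold change 0.2 ± 0.185 SE, edgeR adjusted p = 0.528). Cd80 and Cd86 encode the costimulators that engage CD28 and CTLA-4 on T cells. Cd80 rose from 0.414 ± 0.121 to 1.07 ± 0.541 CPM (log2 fold change 1.37 ± 0.368 SE, edgeR adjusted p = 0.0388) and Cd86 measured 0.541 ± 0.432 CPM in IgG and 1.66 ± 0.44 CPM in combination tumours without passing (log2 fold change 1.61 ± 0.506 SE, edgeR adjusted p = 0.0651). The plot of levels by tumour sets Axl and Cyba beside members that rose.

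**Figure D3:**
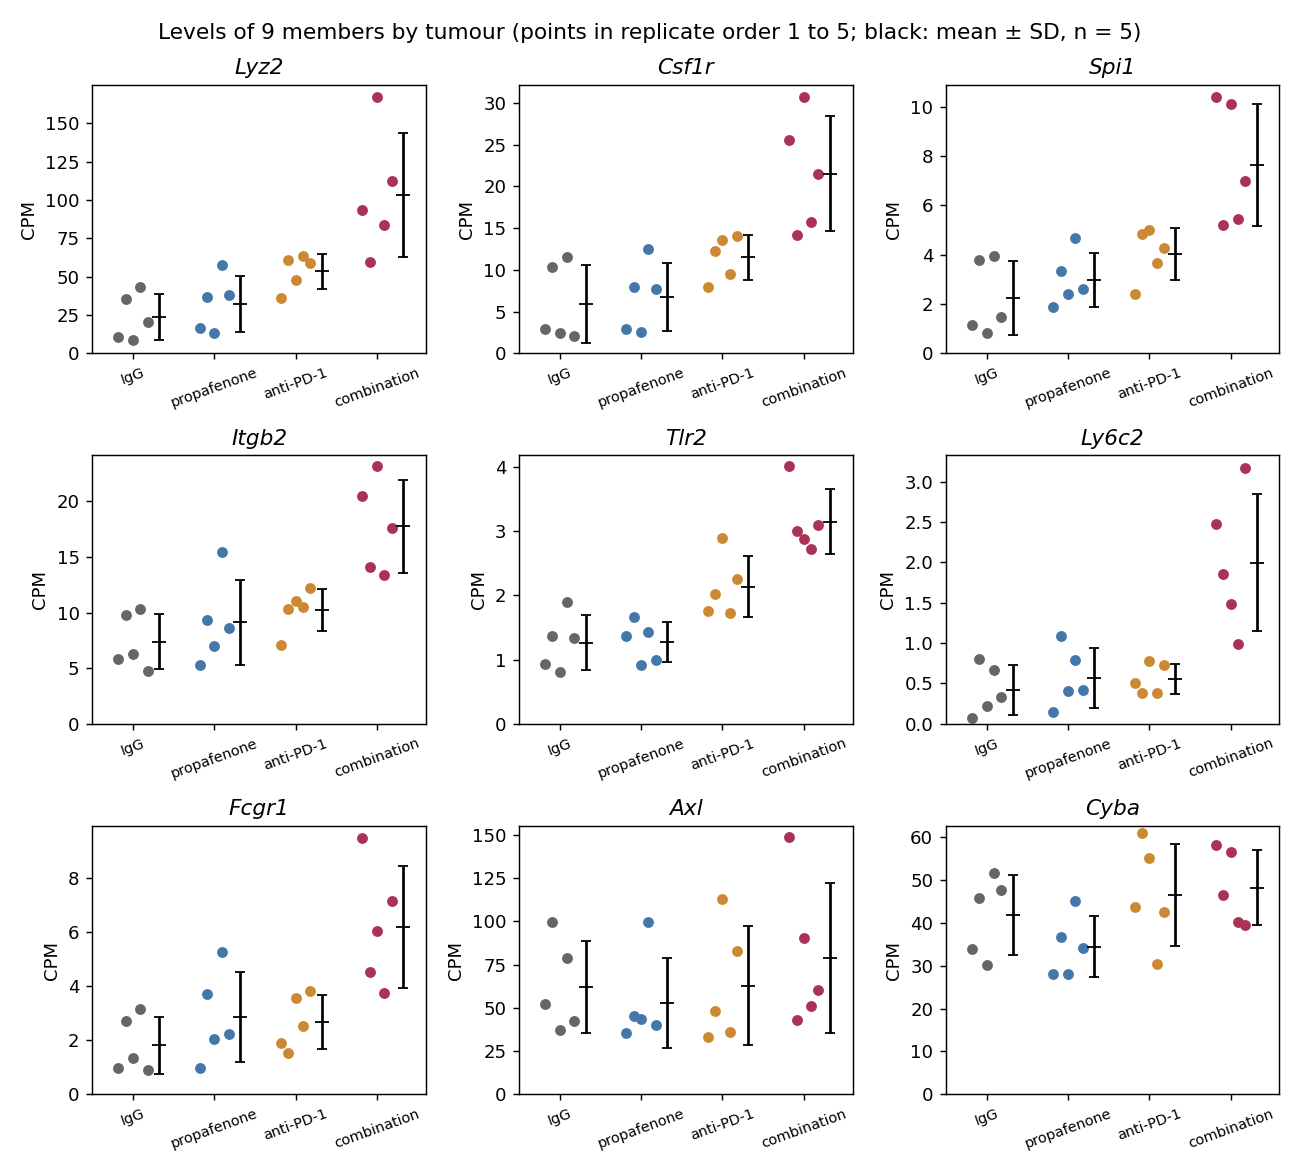
Levels in CPM (y axis, from 0) of 9 members in each tumour, 5 points a group in replicate order, with black bars for the mean ± SD (n = 5). For Lyz2, Csf1r, Spi1, Itgb2, Tlr2, Ly6c2 and Fcgr1 all combination tumours lie above all IgG tumours, while for Axl and Cyba the groups overlap.

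Other genes of these pathways, from a list that leaves out the members, moved in part. Of 41 genes 14 rose and 0 fell between IgG and combination tumours, with a median log2 fold change of 0.73. Among 13 genes of ITAM and Fc receptor signalling 7 rose, among them the kinases Syk (0.8, edgeR adjusted p = 0.0304), Lyn (0.76, 0.0264) and Fgr (1.56, 0.0444), the exchange factor Vav1 (2.08, 0.0344), the adaptor Card9 (1.32, 0.02) and the inhibitory phosphatase Inpp5d (1.2, 0.0199). Among 9 ligands of member receptors 2 rose. Csf1, the ligand of CSF1R, rose from 12.4 ± 1.45 to 20.3 ± 1.9 CPM (log2 fold change 0.71 ± 0.204 SE, edgeR adjusted p = 0.0487), and Gas6, the ligand of AXL and MERTK, rose from 3.67 ± 2.92 to 11.7 ± 2.07 CPM (log2 fold change 1.67 ± 0.417 SE, edgeR adjusted p = 0.0304). Il34, the other ligand of CSF1R, stood at -0.31 (edgeR adjusted p = 0.62), and Cd47 at 0.06 (0.74). Of 8 further myeloid transcription factors 3 rose, Cebpa (1.64, 0.0308), Irf5 (1.3, 0.0439) and Maf (0.51, 0.0314). Of 8 genes of Toll-like receptors and partners 1 rose, Tlr13 (1.44, 0.0387), a sensor of bacterial ribosomal RNA.

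Some members have close copies in the genome, and how shared reads were assigned is not given in the sources used here, so their split is uncertain. Lyz1, the copy of Lyz2, stood at 2.18 (edgeR adjusted p = 0.258) and measured 0.392 ± 0.543 CPM in IgG and 1.79 ± 1.47 CPM in combination tumours. Ly6c1, a near copy of Ly6c2 that endothelial cells also carry, measured 3.54 ± 2.35 CPM in IgG and 8.26 ± 1.78 CPM in combination tumours (1.22, 0.0749). Ms4a6b rose (1.84, 0.031), as did Pira2 (2.06, 0.0221), an activating relative of Pirb.

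Markers of other tissues moved beside the members. Skeletal muscle genes rose in 6 of 8, and their summed level was 5.91 to 58.7 CPM in IgG, 11.3 to 57.8 after propafenone, 6.2 to 235 after anti-PD-1 and 37.6 to 444 CPM after the combination. Combination tumour 3 had the lowest muscle sum of its group, 37.6 CPM, and lay above the 20-tumour median for 35 of 36 members. The same tumour had the highest Col3a1 of the 20, at 560 CPM. Within IgG, tumours 2 and 4 were each the highest for 17 members, and also held the most Acta1, 30.7 and 5.63 CPM. Myh4, Tnnt3, Mylpf, Pvalb and Atp2a1 were likewise highest in these tumours of the group. Ckm was lowest in IgG tumour 4, at 1.11 CPM, and Casq1 there, at 1.16 CPM, was below IgG tumour 3 at 1.26 CPM. With the muscle score as a covariate 0 of 36 members and 0 genes in all were called, the median log2 fold change of the members was 0.92, and 35 members stayed above 0. The smallest adjusted p of a member was then 0.146, for Cd14, and Axl stood at -0.11. Of 6 fibroblast genes 3 rose, Lum (1.94, edgeR adjusted p = 0.0129), Pdgfra (1.05, 0.0264) and Col3a1 (1.86, 0.0411), and the fibroblast sum was 127 to 499 CPM in IgG and 484 to 1200 CPM in combination tumours. Of 5 mast cell genes tested 3 rose, Mcpt4, Tpsb2 and Cma1, and of 5 endothelial genes Tek rose. None of the dendritic cell (7 tested), T cell (6), NK cell (3), B cell (3) and neutrophil (3) markers passed, with median log2 fold changes of 1.30, 1.29, 1.26, 0.40 and -0.11. Keratinocyte genes summed to 0 to 0.355 CPM in IgG and 0.0789 to 27.9 CPM in combination tumours, and neither they nor adipocyte genes passed (0 of 5 each). Red blood cell genes summed to 290 to 11700 CPM in IgG and 172 to 453 CPM in combination tumours, and Slc4a1 fell (-4.34, 0.0344). Without the 5 libraries above 1000 CPM of the haemoglobin gene Hbb-bs, of which the combination held 0, 18 members were called, 15 of them among the 22. In that fit 3.46% of all genes were called higher. The part of muscle beyond this covariate, and of fibroblasts, mast cells, vessels and skin, in the members' result was not tested.

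The number of members called rested on single tumours, as did the share of all genes called. It was 0 without IgG tumour 3, 2 without IgG tumour 5, 3 without IgG tumour 1, and 5, 11, 9, 9 and 2 without combination tumours 1 to 5. Of all genes 0.0311%, 0.286% and 0.535% were called higher without IgG tumours 3, 5 and 1, against 2.24% with all 20 libraries. Without combination tumours 1 to 5 the share was 0.654%, 1.25%, 1.15%, 0.674% and 0.299%. In the other 12 fits that left out 1 library the count of members ran from 15 to 24, and the share of all genes from 1.72% to 2.89%. The median log2 fold change of the members ran from 1.35 to 1.87 over the 20 fits, and 36 members were above 0 in each, except the fit without combination tumour 1, where 35 were and Axl stood at -0.02. Without IgG tumour 3, Tlr2 had an adjusted p of 0.0556 and Lyz2 one of 0.0674. No member was called in all 20 fits, Tlr2 was called in 19 and Itgb2 in 18.

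**Figure D4:**
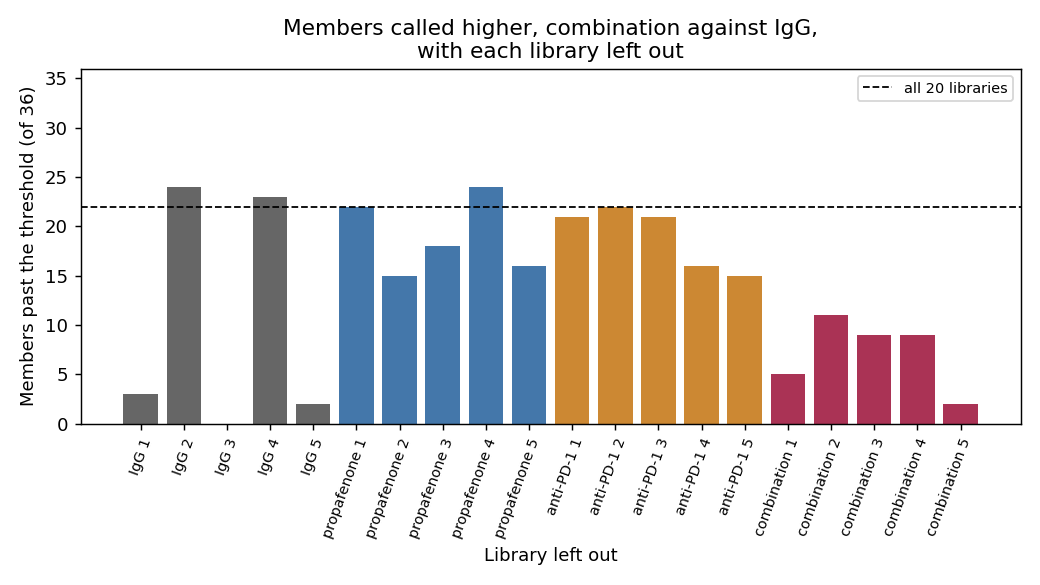
Bars give the number of 36 members called higher in combination than in IgG tumours (y axis) when the library named on the x axis is left out, coloured by group, and the dashed line marks the 22 called with all 20 libraries. The count is 0 without IgG tumour 3 and 24 without IgG tumour 2 or propafenone tumour 4. In these fits 0.0311%, 2.68% and 2.65% of all genes were called higher.

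Against propafenone tumours the combination was again higher for all 36 members, with a median log2 fold change of 1.20, against -0.007 over all genes. Of the members 5 rose, where 1.67% of all genes were called higher and 2.21% lower, and 15 more had an adjusted p from 0.05 to under 0.1. The 5 were Tlr2 (log2 fold change 1.3 ± 0.239 SE, edgeR adjusted p = 0.0188), Itgb2 (0.96, 0.0432), Clec4n (1.39, 0.0461), Spi1 (1.36, 0.0473) and Lyz2 (1.67, 0.0473), and all 5 also rose against IgG. The tumours of both groups stood apart for 11 members, against 3.65% of all genes (4.88% with the combination lower, where no member was). For Itgb2 and Clec4n they overlapped through propafenone tumour 4, at 15.4 and 3.62 CPM. Adgre1 had the largest fitted change, 2.09, and did not pass (edgeR adjusted p = 0.0519). Of the 41 pathway genes 7 rose, among them Syk (0.71, 0.0489), Lyn (0.72, 0.035), Card9 (1.14, 0.0328), Gas6 (2, 0.0261), the adhesion ligand Icam2 (0.95, 0.0398) and Maf (0.54, 0.0311). Muscle genes rose in 4 of 8 and fibroblast genes in 4 of 6 beside them, as did 2 of 5 endothelial genes (Pecam1 and Tek), 1 of 5 mast cell genes (Mcpt4) and 1 of 3 neutrophil markers tested (Csf3r, which monocytes also carry). Of 6 red blood cell genes 1 fell, Slc4a1, and all 6 were lower in each combination tumour than in each propafenone tumour. The count of members was 24 without propafenone tumour 4, 0 without propafenone tumour 3 or 5, 1 without tumour 1 and 2 without tumour 2. Of all genes 5.35%, 0.0249%, 0.137%, 0.548% and 1.05% were then called higher, in this order. Without each of the combination tumours it was 1 member, with 0.131% to 0.611% of all genes. Without IgG tumours 5, 2 and 3 it was 2, 9 and 8 members, with 1.46%, 1.83% and 1.69% of all genes. Without anti-PD-1 tumours 1, 4 and 5 it was 3, 1 and 1 members, with 1.62%, 1.35% and 1.16% of all genes. With the muscle score as a covariate it was 1 member, with 1.89% of all genes. Before adjustment 32 members were under 0.05, against 23.2% of all genes. This comparison shares its combination tumours with the one against IgG, so the 2 are not independent.

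Adding propafenone to anti-PD-1 gave no call. The combination stood higher than anti-PD-1 alone for 36 members, with a median log2 fold change of 0.84, and edgeR called 0 of them and 0% of all genes higher. DESeq2, limma voom and limma on TPM also called 0 members, and 12 members were under 0.05 before adjustment, where 9.78% of all genes were. The 4 with the smallest p were Ly6c2 (log2 fold change 1.84 ± 0.529 SE, edgeR adjusted p = 0.445), Cd80 (1.15 ± 0.364), Itgb2 (0.8 ± 0.256) and Fcgr1 (1.22 ± 0.421), all at 0.445. Ly6c2 measured 0.511, 0.384, 0.781, 0.378 and 0.725 CPM after anti-PD-1 against 0.986 to 3.17 CPM after the combination, so each tumour of the combination was above each of the other group. That held for 7 members, against 1.15% of all genes, and the reverse for no member, against 1.23%. With the muscle score as a covariate the members' median was 0.51. Beside the members, 4 of 8 muscle genes (median log2 fold change 1.31), 4 of 7 dendritic cell genes (1.68) and 4 of 6 red blood cell genes (-2.31) were under 0.05 before adjustment, and none passed the threshold.

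Anti-PD-1 alone stood above IgG for all 36 members by a smaller amount, with a median log2 fold change of 0.73, and 0 members and 0% of all genes were called higher. Before adjustment 11 members were under 0.05, against 7.58% of all genes, and DESeq2, limma voom and limma on TPM called 0 members. The 4 with the smallest p were Tlr2 (log2 fold change 0.75 ± 0.238 SE, edgeR adjusted p = 0.49), Cd14 (1.12 ± 0.38, 0.497), Fcgr2b (0.71 ± 0.251, 0.497) and Mertk (0.56 ± 0.203, 0.515). Cd14 measured 0.507, 0.871, 0.88, 1.67 and 2.78 CPM in IgG and 2.35, 3.92, 2.96, 1.95 and 3.38 CPM in anti-PD-1 tumours, and only IgG tumour 5 reached the range of the treated group. Without the 5 libraries high in Hbb-bs, Cd14 was the 1 member called (1.82 ± 0.312, edgeR adjusted p = 0.049), where 0.0617% of all genes were called higher. The groups were apart for no member, where 0.454% of all genes lay wholly higher and 0.498% wholly lower after anti-PD-1. With the muscle score as a covariate the members' median was 0.39 and 30 of 36 were above 0. Beside the members, 8 of 8 muscle genes (median log2 fold change 2.91), 5 of 5 keratinocyte genes (7.51) and 4 of 6 fibroblast genes (0.78) were under 0.05 before adjustment, and none of them passed the threshold. Their part in the result was not tested beyond the muscle covariate.

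Propafenone alone gave the smallest differences. The members had a median log2 fold change of 0.24, with 31 above and 5 below 0, and edgeR called 0 of them and 0% of all genes. Unadjusted, 0 members were under 0.05, where 4.75% of all genes were, and DESeq2 called 0 members. The smallest p belonged to Cx3cr1 (log2 fold change 1.08 ± 0.66 SE, edgeR adjusted p = 0.913), Fcgr1 (0.65 ± 0.422), Cyba (-0.28 ± 0.185) and Itgam (0.62 ± 0.497), the last at 0.918. The groups were apart for no member, where 0.529% of all genes lay wholly higher and 0.706% wholly lower. The members' median moved from 0.04 without propafenone tumour 4 to 0.57 without IgG tumour 4, and was 0.08 with the muscle covariate and 0.09 without the libraries high in Hbb-bs.

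The interaction is the combination's difference from IgG minus the sum of the differences of both single treatments, on the log2 scale. It was above 0 for 35 of 36 members, with a median of 0.51 against -0.01 over all genes, and no member passed (0% of all genes called). Unadjusted, 0 members were under 0.05, where 3.04% of all genes were, and DESeq2 and limma voom called 0. Ly6c2 had the smallest p (log2 fold change 1.39 ± 0.745 SE, edgeR adjusted p = 0.99), followed by Cd80 (0.91 ± 0.517), Tlr2 (0.55 ± 0.334) and Fcer1g (0.73 ± 0.525), each at 0.99. The median over members moved from 0.26 without IgG tumour 4 to 0.88 without propafenone tumour 4. A departure from the sum of the single treatments was therefore not shown.

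**Figure D5:**
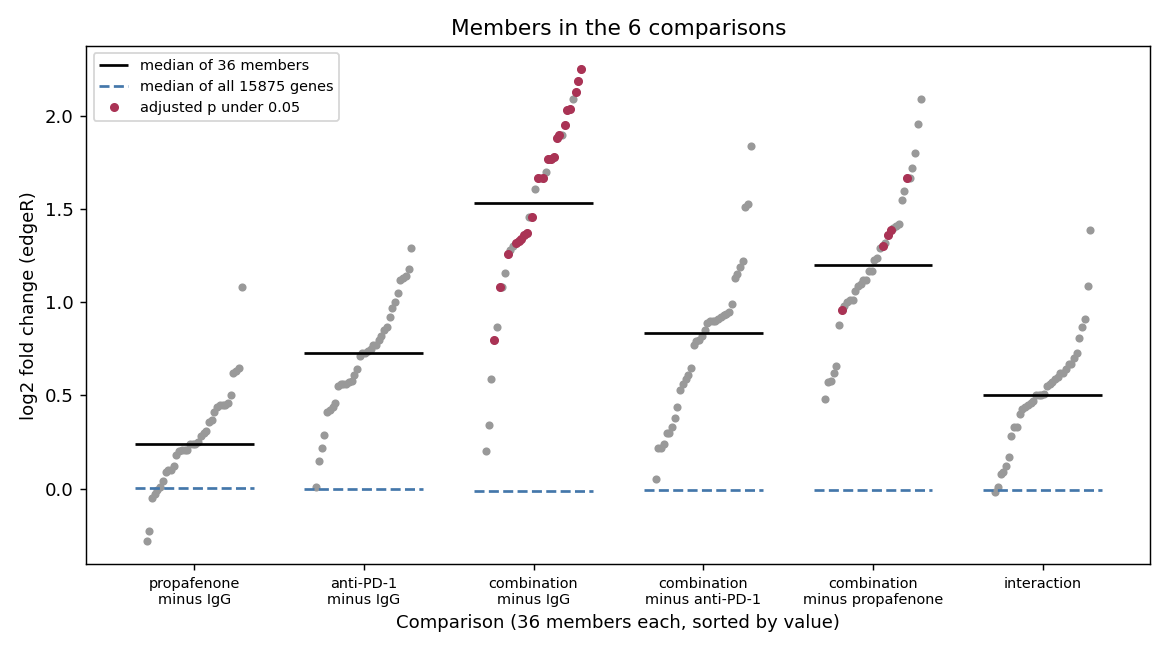
Each column holds the log2 fold changes (y axis, edgeR) of the 36 members in 1 of 6 comparisons, sorted by value, with red for members past the threshold, a black line at the members' median and a dashed blue line at the median of all 15875 genes. The members' median is 0.24, 0.73, 1.54, 0.84, 1.20 and 0.51 from left to right, and the comparisons share tumours, so they are not independent.

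The order of the group means was shared in its top place and differed below it for some members. The combination mean was the highest for all 36 members. For 26 members the order was combination, anti-PD-1, propafenone, IgG. For 5 the IgG mean lay above that of propafenone, and for 5 propafenone lay above anti-PD-1. No member passed the threshold between anti-PD-1 and IgG or between propafenone and IgG, and propafenone was not tested against anti-PD-1.

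In the IgG, propafenone and combination groups a few tumours were the highest or lowest for most members. Among the 5 IgG tumours, tumour 2 or 4 was the highest for 34 of 36 members, and tumour 3 was the lowest for 21. Propafenone tumour 4 was the highest of its group for 33 members and lay above the 20-tumour median for 33, while the other propafenone tumours did so for 1 to 7. Of the combination tumours, number 1 was the highest for 19 and number 3 for 12 members, and number 2 was the lowest for 25. All 5 lay above the 20-tumour median for 29 to 36 members. The highest of the 20 values came from a combination tumour for 34 members, and the lowest from an IgG tumour for 32. In the anti-PD-1 group no tumour led for most members: tumours 1 to 5 were the highest for 3, 7, 12, 3 and 11 members and the lowest for 18, 10, 2, 6 and 0, with 7 to 31 members above that median. Since genes of the same cells share their tumours, these counts over members describe 20 tumours and are not 36 separate results.

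Ratios between members were compared because they stay level when all members rise by the same factor. 4 ratios were tested in 5 pairwise comparisons by a two-sided exact permutation test over tumours, with 5 against 5 and a smallest possible p of 0.0079. None of the 20 tests passed, 0 were under 0.05 before adjustment, and the smallest p was 0.095 (Benjamini-Hochberg adjusted 0.63). The log2 ratio of Ly6c2 to Adgre1, monocyte to macrophage marker, was -2.91 ± 0.78 (SD, n = 5) in combination and -2.68 ± 0.85 in IgG tumours (exact permutation p = 0.67). It was lowest after anti-PD-1, at -3.54 ± 0.47 (difference from IgG -0.86, exact permutation p = 0.095). Fcgr4 to Fcgr2b, an activating to the inhibitory Fc receptor, was -1.64 ± 0.73 in combination and -2.15 ± 0.85 in IgG tumours (exact permutation p = 0.34). Cd80 to Cd86 was -0.70 ± 0.33 and -0.08 ± 0.85 (exact permutation p = 0.17), and Axl to Mertk 3.45 ± 0.69 and 3.97 ± 0.54 (exact permutation p = 0.24). These differences lay within the spread between tumours, and a p above the threshold does not show that the ratios were equal.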

How the data were processed

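Bulk RNA sequencing of 20 tumours was analysed, 5 in each of 4 groups set by the labels' treatment field. Libraries were made with a SMARTER kit for mRNA, per the labels' protocols. HISAT2 2.2.1, FastQC and SAMtools 1.9 are listed in the submitters' processing notes, as are GRCm38 and mm10, 2 names of 1 mouse build. The counting tool, its annotation and its strand setting are not given in the sources used here. The deposited table holds expected counts, estimated per gene by the authors, stored as whole numbers and not normalized. How many counts stand for 1 fragment is not known, since 4 and 8 are more frequent than their neighbours, so no counting intervals are given. A second deposited table holds TPM made by the authors, used for levels per length and as an alternative. Of 32285 identifiers 32158 were in GENCODE mouse release 21, the source of GRCm38 coordinates.

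The test was edgeR's quasi-likelihood test (edgeR 4.0.16 under R 4.3.3), fitted robustly to all 20 libraries with TMM scaling after filterByExpr, leaving 16 residual degrees of freedom, with Benjamini-Hochberg adjustment over 15875 genes and a threshold of 0.05. A standard error is the absolute log2 fold change over the root of its F statistic. CPM used TMM-scaled library sizes. The test was tested on simulated data first. Ratios used log2(CPM + 0.05). The 36 members were described in all comparisons, with the 4 smallest p named where none or few passed. Members, lists and alternatives were chosen with earlier results of these data known. Alternatives were other scalings, filters and pseudocounts, DESeq2 1.42.0, limma 3.58.1, counts divided by 4, a replicate block, a muscle covariate (the mean centred log2 CPM of 8 skeletal muscle genes), fits of only the groups compared, and single libraries or those above 1000 CPM of Hbb-bs left out. Some pathway genes are not reported here. Same-numbered tumours were checked for pairing, and no clear pairing was seen. Within groups, libraries differed by more than sampling noise: the lowest chi-square per gene over 40 within-group pairs was 4.21, on counts divided by 4.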

Additional observations from a re-analysis of the deposited data

Results flagged for a closer look

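In 4 of 144 sets of 5 tumours (36 members in 4 groups) 1 tumour stood apart from the other four on the log2 scale by Dixon's ratio at the 95% level, and chance flags about 1 set in 20. Ms4a6d measured 1.65 CPM in propafenone tumour 1, the lowest of its group, with the next at 3.51 CPM. Cx3cr1 measured 1.59 CPM in combination tumour 1, the highest, with the next at 0.523 CPM. Axl measured 99.3 CPM in propafenone tumour 4, the highest, with the next at 45.1 CPM. Cd86 measured 0.607 CPM in anti-PD-1 tumour 1, the lowest, with the next at 0.941 CPM.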

How the results depend on the processing

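Between combination and IgG tumours 22 members were called. The count was 18 with relative log expression size factors and 21 with library totals. It was 17 of 32 tested with a mean CPM of at least 1 and 25 of 35 tested on counts divided by 4. With only the groups compared it was 21, by limma voom 27, on log2(TPM + 1) 31, on log2(TPM + 0.1) 30 and by DESeq2 29. In this order 1.93%, 2.32%, 2.09%, 3.48%, 5.61%, 3.17%, 5.75%, 4.91% and 5.02% of all genes were called higher, against 2.24% in the main fit. The count of members was 11 with no low-count filter, which tests more genes (1.01% called higher). It was 0 with the muscle score as a covariate (0% of all genes) and 0 to 24 with single libraries left out (0.0311% to 2.89%). The cause of these last 2 was not tested. The median change over all genes was 0.102 on log2(TPM + 0.1), where the members' median was 1.78. Over all genes the split of 356 higher and 418 lower became 306 and 217 with relative log expression size factors and 368 and 112 with library totals, and against propafenone 265 and 351 became 231 and 207, and 258 and 89. Axl reversed to -0.11 with the muscle covariate and to -0.02 without combination tumour 1, within a range of -0.02 to 0.59 with single libraries left out, the only reversals among the member values recomputed one by one. For anti-PD-1 against IgG, where all 36 members were above 0, 30 were with the muscle covariate and 35 by limma voom, on both TPM scales and without IgG tumour 1, 3 or 5 or anti-PD-1 tumour 3 or 5. Their median was 0.39 with the muscle covariate, and that of combination against anti-PD-1 0.51.

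Between combination and propafenone tumours 5 members were called. The count was 2 with relative log expression size factors, 2 with library totals, 1 with no low-count filter and 1 with the muscle covariate. Of all genes 1.46%, 1.63%, 0.711% and 1.89% were called higher in these fits, against 1.67% in the main fit. On counts divided by 4 the count was 14 of 35 members tested (2.99% of all genes). With only the groups compared it was 13 (3.37%), and without the libraries high in Hbb-bs 19 (3.62%). By limma voom it was 20 (3.29%), on log2(TPM + 1) 20 (4.02%), on log2(TPM + 0.1) 10 (2.89%) and by DESeq2 21 (4.66%). With single libraries left out it was 0 to 24 (0.0249% to 5.35%). The cause was not tested. In the comparisons with no call, the alternatives gave 0, except 1 member for anti-PD-1 against IgG without the libraries high in Hbb-bs. The 20 ratio tests gave 0 calls under each alternative.

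With the replicate number as a block, 23 members were called between combination and IgG, 20 of them among the 22, and 11 between combination and propafenone. Of all genes 2.4% and 2% were called higher in these fits. Deviations from group means correlated at -0.41 to 0.369 (mean -0.00694) over the 30 same-number pairs. For 7 of 20 libraries the best match had the same number, and the number due to chance was not computed. No clear pairing by number was seen, which does not exclude it. On counts divided by 4, Ly6c2 and Cd80, both of low level, were still called between combination and IgG.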
